A study of Arabidopsis thaliana with 27 samples.

Results

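PHV, LAS, CLV3 and CR4 are regulators of the shoot meristem and the epidermis of Arabidopsis thaliana, and their transcripts were followed in callus that had been moved to medium that induces shoots. They were chosen by name, as the probe sets that the array annotation maps to these symbols. Each gene had 1 probe set: 261800_at for PHV (AT1G30490), 265072_at for LAS (AT1G55580), 265624_at for CLV3 (AT2G27250) and 251521_at for CR4 (AT3G59420). They are 4 of 13286 genes tested, on Affymetrix arrays with 22746 probe sets that are not controls.

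Hypocotyls of 12-day-old Columbia (Col-0) seedlings had spent 6 days on callus-inducing medium, and RNA was taken after 0, 3 or 6 days on shoot-inducing medium. Genotypes were the wild type, upf1-1 (lba1-1/upf1-1 in the labels) and upf3-1, so that genotype and day made 9 groups, each of 3 arrays, and the series asks which genes the mutations affect. UPF1 and UPF3 act in nonsense-mediated mRNA decay, the surveillance pathway that removes transcripts whose reading frame ends too early; upf1-1 is known as a missense allele and upf3-1 as an insertion allele. The labels give 1 allele per gene and no rescued line. They do not say whether replicates were separate cultures, and the spread behind each p-value is that between these samples and may be technical.

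A shoot meristem keeps a small pool of stem cells at its tip and sets off leaves at its flanks. CLV3 is the secreted peptide with which the stem cells limit their own number, and its transcript is a classical marker of a formed meristem. CR4, widely called ACR4, is a receptor kinase of the outer cell layer of shoots that also acts in root tips and in the founder cells of lateral roots. LAS is a GRAS-family regulator expressed in the boundaries at leaf axils and needed for axillary meristems, and PHV is an HD-ZIP III transcription factor of the meristem and the upper leaf side that is targeted by microRNAs of the miR165/166 family.

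Values are log2 signals made by RMA (robust multi-array average), which forces all arrays onto 1 distribution, so that a difference of 1 is a 2-fold change relative to the other transcripts of the array. Differences were tested with limma over all 27 arrays; a gene is called where the Benjamini-Hochberg adjusted p over the 13286 genes of a comparison is under 0.05. RNA came from whole callus, so fewer cells of a type and less RNA per cell cannot be told apart. Replicates correlated with r between 0.9924 and 0.9974, and 27 of 27 arrays were nearest to another array of their own group. This includes upf1-1 day 0 replicate 1, which is upf1-1 by its genotype and source name and wild type in part of its title. The UPF3 signal averaged 5.87 to 6.10 in the upf3-1 groups, 8.99 to 9.08 in the wild type groups and 9.52 to 9.65 in the upf1-1 groups, so that it was low in each group labelled upf3-1. UPF1 was not analysed here.

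RMA values carry no detection call, so the low end of the array was set from the values. A gene was taken as near the background in a group where its mean lay under the 25th percentile of that group's probe sets, at a log2 signal of about 3.98. The 3 control probe sets for Trp, a bacterial transcript that is not part of the usual spike-in mix, read 2.48 to 3.20. CLV3 lay under the 25th percentile in 9 of 9 groups, between the 13.04th and the 20.03rd percentile and 0.12 to 0.60 above the highest Trp probe set of the group. The pollen receptor genes ANX1 and ANX2, whose transcripts are not known from callus, averaged 3.10 and 3.17, although the 2 other pollen genes measured read higher (MGH3 at 4.16 and TUA1 at 7.63). PHV lay between the 94.67th and the 96.54th percentile. LAS lay between the 39.36th and the 45.88th, and CR4 moved from the 54.45th in the wild type on day 0 to the 33.88th in upf3-1 on day 6. A threshold at the 40th percentile (5.59) would have put 3 groups of LAS and 5 of CR4 in the low range as well.

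**Figure D1:**
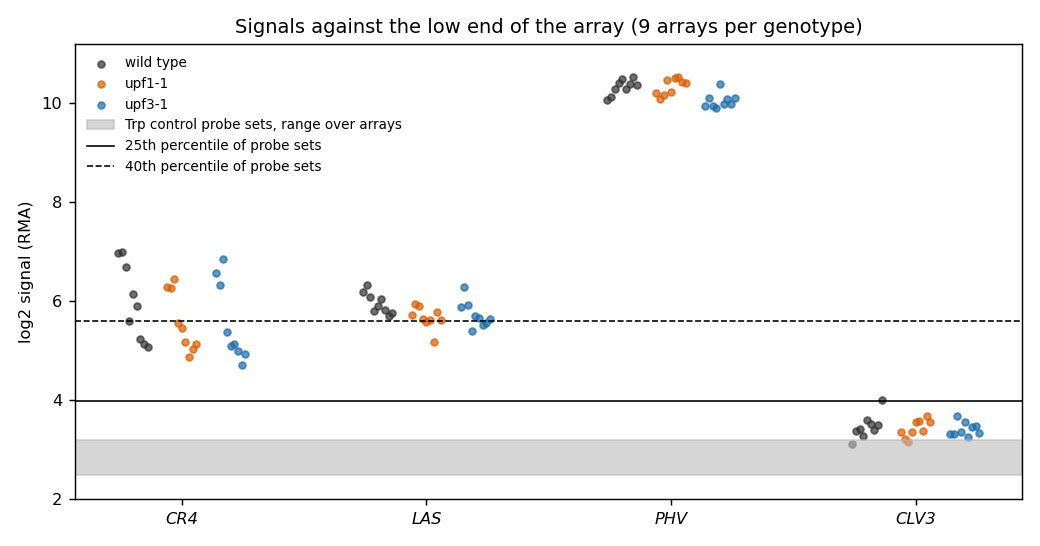
Log2 signal (RMA) of the 4 genes in each of 27 arrays, coloured by genotype, with 9 arrays per genotype (days 0, 3 and 6 from left to right). The grey band is the range of the Trp control probe sets over arrays (2.48 to 3.20). The lines are the 25th and 40th percentiles of probe sets (3.98 and 5.59). PHV is far above both, LAS and CR4 lie on both sides of the 40th, and CLV3 stays at the low end.

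The group means of CR4 ranged over 2.01 on the log2 scale. Its transcript fell in all 3 genotypes between day 0 and day 3, and its means on day 6 were lower again. The log2 signals of the wild type were 6.98, 6.99 and 6.69 at the start, 5.61, 6.15 and 5.90 after 3 days, and 5.24, 5.14 and 5.08 after 6 days, with no overlap between days. Those of upf1-1 were 6.29, 6.26 and 6.45, then 5.55, 5.45 and 5.17, then 4.87, 5.03 and 5.13. Those of upf3-1 were 6.56, 6.32 and 6.86, then 5.37, 5.09 and 5.13, then 4.99, 4.70 and 4.94. In each mutant, too, the 3 days did not overlap.

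From day 0 to day 6 CR4 fell by 1.74 (SE 0.14) in the wild type, which is 3.33-fold, with a limma adjusted p of 6.2e-10. The corresponding values were -1.32 in upf1-1 (2.50-fold lower, adjusted p = 7.68e-08) and -1.71 in upf3-1 (3.26-fold lower, 6.83e-10). The wild type difference was the 106th lowest of 13286 genes, so that 0.798% of genes fell at least as far. Most of the fall lay in the first 3 days: by day 3 CR4 stood at -0.9996 in the wild type (4.73e-06), -0.94 in upf1-1 (1.5e-05) and -1.38 in upf3-1 (3.48e-08). From day 3 to day 6 it fell further in the wild type (-0.74, adjusted p = 0.00163), while -0.38 in upf1-1 (0.14) and -0.32 in upf3-1 (0.175) were not called. Centred on the poly-A spike-ins, the array's control transcripts that are added to a sample, CR4 still fell from day 0 to day 6 (-0.996, -0.85 and -1.09), and the wild type call between days 3 and 6 was lost (-0.28, adjusted p = 0.127).

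CR4 was also lower in the mutants than in the wild type in the deposited values. It was called on some days and not on others. A change of this difference over the days was not shown, as no interaction of CR4 was called (lowest limma adjusted p = 0.393). On day 0 all 3 upf1-1 arrays were below all 3 wild type arrays (-0.55, limma adjusted p = 0.00629), while upf3-1 overlapped the wild type (-0.30, 0.148). On day 3 both mutants were lower, upf1-1 by -0.50 (0.0131) and upf3-1 by -0.69 (0.000705), and neither overlapped the wild type. On day 6 the differences were -0.14 (95% interval -0.42 to 0.14) and -0.27 (-0.56 to 0.01), and neither was called. Averaged over the days CR4 was 1.32-fold lower in upf1-1 (-0.40, SE 0.08, adjusted p = 0.000334) and 1.34-fold lower in upf3-1 (-0.42, 0.000171). On a scale centred on the spike-ins these averages were -0.19 (adjusted p = 0.108) and -0.19 (0.111), where the median of all genes stood at 0.181 and 0.205, and no day was called. The comparisons of both mutants use the same wild type arrays. The day 3 call in upf1-1 was lost without wild type day 3 replicate 2 (adjusted p = 0.101), without upf1-1 day 3 replicate 3 (0.0922) and in a fit of the groups compared alone (0.0573). The day 0 value in upf3-1 was called without upf3-1 day 0 replicate 3 (-0.44, 0.0396).

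**Figure D2:**
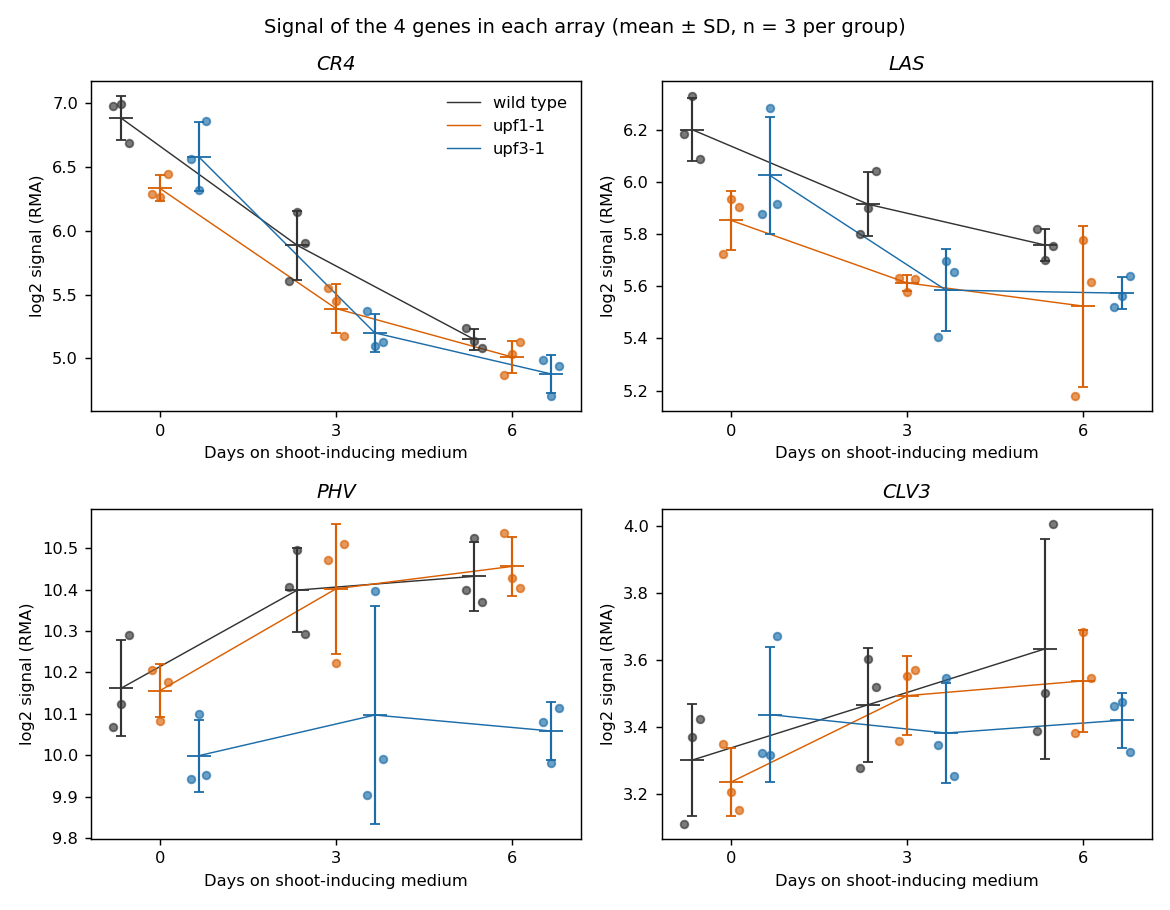
Log2 signal (RMA) of each gene by days on shoot-inducing medium, with 1 point per array, the bar at the mean with its SD (n = 3) and lines joining the means of a genotype; each panel has its own axis. CR4 falls from 6.89 to 5.15 in the wild type means and LAS from 6.20 to 5.76, PHV in upf3-1 has means between 10.00 and 10.10, and the CLV3 means lie between 3.23 and 3.63.

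LAS also fell over the days in the deposited values. Its wild type signals were 6.18, 6.33 and 6.09 at the start, 5.80, 5.90 and 6.04 after 3 days, and 5.82, 5.70 and 5.76 after 6 days. Its upf1-1 signals were 5.72, 5.93 and 5.90, then 5.63, 5.58 and 5.63, then 5.18, 5.78 and 5.62. Its upf3-1 signals were 5.88, 6.28 and 5.92, then 5.40, 5.70 and 5.65, then 5.52, 5.56 and 5.64. Days 0 and 6 did not overlap in the wild type and in upf3-1, whereas in upf1-1 they did, and the lowest of all 27 LAS values was upf1-1 day 6 replicate 1.

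The LAS difference of day 6 over day 0 was -0.44 in the wild type (SE 0.12, 1.36-fold lower, limma adjusted p = 0.00621), -0.33 in upf1-1 (0.044) and -0.45 in upf3-1 (0.00435), although all 3 turned positive on a scale centred on the spike-ins (0.30, 0.15 and 0.16). On that scale the median of all genes had itself moved by 0.715, 0.467 and 0.594, and relative to it LAS stood at -0.42, -0.32 and -0.43. The centring shifts all genes of an array alike, so these relative values restate the deposited differences and are no separate support. The fall by day 3 was called in upf3-1 (-0.44, adjusted p = 0.00681) and missed the threshold in the wild type (-0.29, 0.0841) and in upf1-1 (-0.24, 0.182). In upf1-1 the call did not hold without day 6 replicate 1 (-0.16, adjusted p = 0.334), nor without day 0 replicate 2 (0.143) or 3 (0.12), nor on the reference gene scale (0.0545) or with only the groups compared (0.133). The day 3 call in upf3-1 did not hold without day 0 replicate 2 (0.0678) or day 3 replicate 1 (0.052), nor on the spike-in scale (-0.10, 0.647).

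In both mutants LAS was below the wild type when the days were averaged, by 1.23-fold in upf1-1 (-0.29, SE 0.07, limma adjusted p = 0.00177) and 1.17-fold in upf3-1 (-0.23, 0.012), at -0.09 and 0.0061 on the spike-in scale, neither called, and the latter at an adjusted p of 0.0503 on a scale centred on the reference genes. No single day was called. The closest were upf1-1 on day 0 (-0.35, adjusted p = 0.0512) and upf3-1 on day 3 (-0.33, 0.0543), where the arrays of mutant and wild type did not overlap. The upf1-1 value of day 0 was called in a fit of the groups compared alone (adjusted p = 0.0328), after the filter at the 25th percentile (0.0396), with all probe sets (0.05) and without wild type day 0 replicate 3 (0.047). The upf3-1 value of day 3 was called after the filter (0.0425) and without wild type day 3 replicate 1 (0.0468) or upf3-1 day 3 replicate 2 (0.0473), and that of upf1-1 on day 3 (-0.30, 0.0953) in a fit of the groups compared alone (0.0495).

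In the deposited values PHV rose on shoot-inducing medium in the wild type and in upf1-1, and was lower in upf3-1 than in the wild type. The wild type signals were 10.07, 10.12 and 10.29 at the start, 10.41, 10.50 and 10.29 after 3 days, and 10.40, 10.53 and 10.37 after 6 days. For upf1-1 the readings were 10.21, 10.08 and 10.18, then 10.47, 10.22 and 10.51, then 10.54, 10.43 and 10.40. For upf3-1 they were 9.94, 10.10 and 9.95, then 9.90, 10.40 and 9.99, then 10.08, 9.98 and 10.11. Of the 9 upf3-1 values, that of day 3 replicate 2 was the highest and lay within the day 3 ranges of the wild type and of upf1-1. On day 6 all 3 upf3-1 arrays were below the 6 arrays of the other genotypes.

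PHV rose 1.21-fold from day 0 to day 6 in the wild type (0.27, SE 0.10, limma adjusted p = 0.0441) and 1.23-fold in upf1-1 (0.30, 0.0286). In upf3-1 it stood at 0.06 (95% interval -0.15 to 0.27, adjusted p = 0.698). The wild type call was lost without wild type day 0 replicate 1 (0.162) or 2 (0.118), or without day 6 replicate 1 (0.0703), 2 (0.155) or 3 (0.0566). That in upf1-1 was lost without upf1-1 day 0 replicate 2 (0.107) or 3 (0.0547) or day 6 replicate 1 (0.1). By day 3 PHV stood at 0.24 in the wild type (0.0892) and 0.25 in upf1-1 (0.0928), each called without 1 array (wild type day 0 replicate 3, 0.0497, and upf1-1 day 3 replicate 2, 0.0331). On the spike-in scale the day 3 values were 0.52 in the wild type (0.0248), 0.39 in upf1-1 (0.166) and 0.44 in upf3-1 (0.0454). The median of all genes on that scale stood at 0.27, 0.148 and 0.311, so PHV lay 0.25, 0.24 and 0.125 above it. For day 6 over day 0 PHV in upf3-1 was called there (0.68, adjusted p = 0.00074), 0.08 above a median of 0.594. The wild type (adjusted p = 3.89e-06) and upf1-1 (0.000352) were called there too, 0.29 and 0.31 above their medians. In the deposited values the change to day 6 in upf3-1 differed from that in the wild type by -0.21. The 95% interval was -0.51 to 0.09 (adjusted p = 0.615), so the changes were not shown to differ.

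Averaged over days PHV was 1.21-fold lower in upf3-1 than in the wild type (-0.28, SE 0.06, limma adjusted p = 0.000573), and in upf1-1 it stood at 0.01 (95% interval -0.11 to 0.13). On the spike-in scale the upf3-1 average was -0.04 (adjusted p = 0.715), against 0.205 for the median of all genes. By day, upf3-1 differed by -0.16 at the start (0.32), -0.30 after 3 days (0.0357) and -0.37 after 6 days (0.0112); the day 3 value was 0.014 on the spike-in scale, where the median of all genes stood at 0.276. The day 3 call was lost without wild type day 3 replicate 1 (0.0742) or 2 (0.135), without upf3-1 day 3 replicate 1 (0.216) or 3 (0.144), in a fit of the groups compared alone (0.166), and on the reference gene scale (0.0994). The day 6 call was lost without wild type day 6 replicate 2 (0.0565) or upf3-1 day 6 replicate 2 (0.0545), and on the spike-in scale (-0.24, 0.558). Set against upf1-1, PHV in upf3-1 was at -0.16 at the start (0.465), -0.30 after 3 days (0.0682) and -0.40 after 6 days (adjusted p = 0.0391). The day 3 value was called without upf1-1 day 3 replicate 2 (0.0419), without upf3-1 day 3 replicate 2 (0.00216) and with trend and robust (0.0436). The day 6 call was lost when any 1 of the 6 arrays was left out (adjusted p 0.0536 to 0.167), in a fit of the groups compared alone (0.0724) and on the reference gene scale (0.0982).

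CLV3 was not called in any of the 26 comparisons of the deposited values, and its signals stayed near the background throughout. The wild type arrays read 3.11, 3.37 and 3.42 at the start, 3.28, 3.60 and 3.52 after 3 days, and 3.39, 3.50 and 4.01 after 6 days. In upf1-1 they read 3.35, 3.21 and 3.15, then 3.36, 3.55 and 3.57, then 3.38, 3.68 and 3.55, and in upf3-1 3.32, 3.32 and 3.67, then 3.35, 3.55 and 3.25, then 3.46, 3.47 and 3.32. The upf1-1 arrays of day 0 were all below those of upf1-1 on days 3 and 6 and of the wild type on day 6, while all other pairs of CLV3 groups overlapped. The highest value, 4.01 in wild type day 6 replicate 3, was the only one above the 25th percentile line of 3.98.

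The CLV3 difference between days 0 and 6 was 0.33 in the wild type (SE 0.14, 95% interval 0.05 to 0.61, limma adjusted p = 0.0623) and 0.30 in upf1-1 (0.02 to 0.58, 0.101). In upf3-1 it was -0.02 (-0.30 to 0.26, 0.939), and it turned to 0.60 on the spike-in scale against a median of all genes of 0.594. On the reference gene scale the wild type value was 0.36 with an adjusted p of 0.0469. On the spike-in scale the difference was 1.07 in the wild type and 0.78 in upf1-1, both called. These were 0.36 and 0.32 above the median of all genes, which restates the deposited differences. Without wild type day 6 replicate 3 the wild type difference dropped to 0.15 (adjusted p = 0.46), and without replicate 1 of that group it was 0.45 and called (0.0189). Near the background of an array, log2 differences are compressed.

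**Figure D3:**
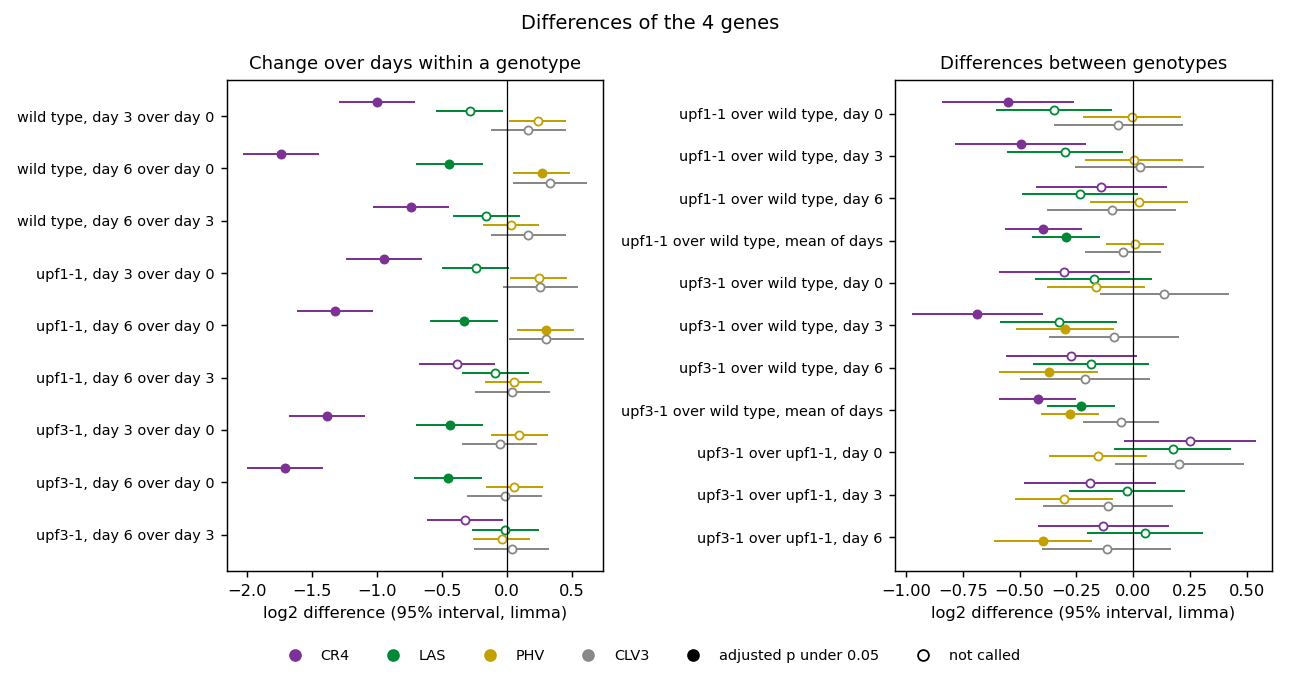
Log2 differences of the 4 genes with their 95% intervals from limma, for the change over days within a genotype (left) and between genotypes (right); filled points have an adjusted p under 0.05. CR4 lies at -1.74, -1.32 and -1.71 for day 6 over day 0 in the 3 genotypes, and the intervals of CLV3 in upf3-1 include 0.

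Counted over the 9 comparisons of days within a genotype, 13 of 36 values of the 4 genes were called, 2 higher (both PHV) and 11 lower (7 of CR4 and 4 of LAS); centred on the spike-ins the calls were 10 higher and 6 lower, and on the reference genes 3 and 10. Over all genes 22.2% of the deposited values were called, 45.9% on the spike-in scale and 21.4% on the reference gene scale. On the spike-in scale most calls over all genes were higher. Their share ran from 69.9% (upf1-1, day 3 over day 0) to 99.6% (wild type, day 6 over day 3). In the deposited values of the wild type 1 of the 4 genes was called for day 3 over day 0, where 28.5% of all genes were. It was 3 for day 6 over day 0 (33.6%) and 1 for day 6 over day 3 (5.16%). In upf1-1 it was 1 (21.5%), 3 (29.1%) and 0 (3.12%), and in upf3-1 2 (31.5%), 2 (38.9%) and 0 (8.23%).

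Mutant over wild type on single days gave 5 calls of 24, all lower, against 18% over all genes. For upf1-1 they were 1 of 4 genes on day 0 (17.1% of all genes), 1 on day 3 (17.2%) and 0 on day 6 (17.7%). For upf3-1 they were 0 on day 0 (15.3%), 2 on day 3 (22.5%) and 1 on day 6 (18.4%). Averaged over days, 2 of 4 were called in upf1-1 (35.3% of all genes) and 3 of 4 in upf3-1 (37.4%).

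Between the mutants the call of PHV on day 6 was the 1 call among 12 values. The counts were 0 of 4 on day 0 (3.84% of all genes), 0 on day 3 (7.93%) and 1 on day 6 (2.24%). Whether a mutant changed differently from the wild type over time was tested as an interaction, and limma called 0 of 24 values; 2, both of CR4, had an unadjusted p below 0.05. They were the change from day 0 to day 6 in upf1-1 (0.41 less of a fall, 95% interval 0.01 to 0.81, adjusted p = 0.504) and from day 3 to day 6 in upf3-1 (0.41, 0.01 to 0.82, 0.503). Few genes of the array passed these tests: for upf1-1 0.241%, 0.452% and 0% (days 3 over 0, 6 over 0 and 6 over 3), and for upf3-1 0.662%, 0.361% and 0.354%, with 0 of the 4 genes in each.

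The 4 genes differed in where their variation lay. Of the sum of squares of CR4 over the 27 arrays, 86.2% lay between days, 7.25% between genotypes and 4.23% between replicates. For LAS the day held 47.7% and the genotype 24.7%, while for PHV the genotype held 44.9% and the day 23.0%. Of CLV3's variation 62.1% lay between replicates, against 35.9% for the median gene. LAS and CR4 correlated at 0.789 over the 27 arrays and 0.933 over the 9 group means, which is a description of arrays that share days and genotypes. PHV correlated with LAS at -0.20 and with CR4 at -0.36 over the arrays.

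**Figure D4:**
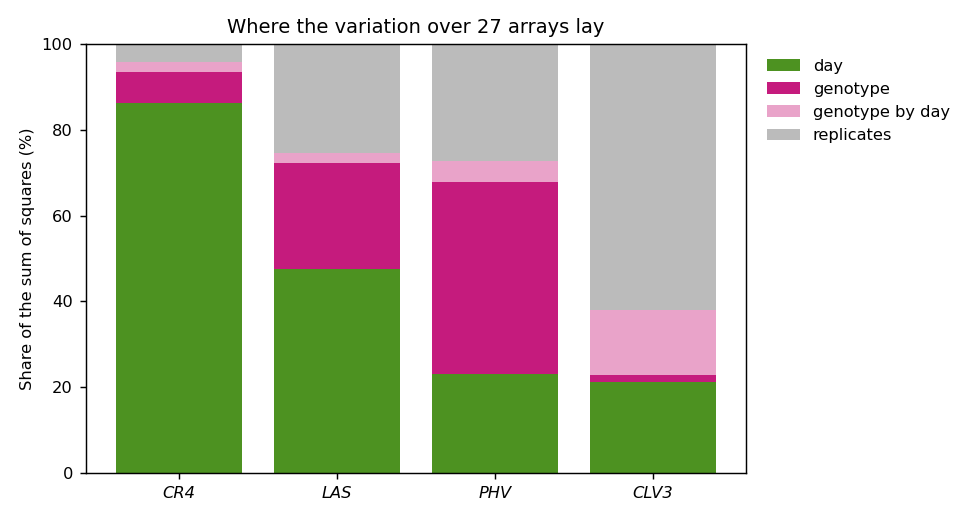
Share of the sum of squares over 27 arrays, in percent, that lay between days, between genotypes, in their interaction and between replicates of a group, for each gene. The day takes 86.2% in CR4 and the genotype 44.9% in PHV, and replicates take 62.1% in CLV3.

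In the order of their group means the genes also differed. CR4 was highest in the wild type on day 0 (6.89 ± 0.17, SD, n = 3), followed by upf3-1 (6.58 ± 0.27) and upf1-1 (6.33 ± 0.10) on day 0, with overlap between neighbours. The wild type on day 3 (5.89 ± 0.27) came next without overlapping either neighbour, and the 5 remaining groups from 5.39 ± 0.19 (upf1-1 day 3) to 4.88 ± 0.15 (upf3-1 day 6) each overlapped the next. PHV was highest on days 3 and 6 of the wild type and upf1-1 (means of 10.40 to 10.46), with the 5 other groups at 10.00 to 10.16. Of neighbours in that order, the wild type of day 3 and the wild type of day 0 did not overlap, while upf1-1 and upf3-1 on day 3 overlapped across that place. LAS ran from 6.20 ± 0.12 in the wild type on day 0 to 5.52 ± 0.31 in upf1-1 on day 6, and of its neighbours the wild type on day 6 (5.76 ± 0.06) and upf1-1 on day 3 did not overlap, although upf1-1 on day 6, the lowest in mean, overlapped groups above that place. For CLV3, from 3.63 ± 0.33 (wild type day 6) to 3.23 ± 0.10 (upf1-1 day 0), every neighbour overlapped.

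Few pathway partners had a probe set with 1 symbol. For CLV3 they were POL and UFO of 21 listed stem cell genes (3 with CLV3 itself). POL, a phosphatase that acts downstream of CLAVATA signalling, fell from day 0 to day 6 in upf1-1 (-0.57, SE 0.12, limma adjusted p = 0.000779) and upf3-1 (-0.38, 0.0139) and stood at -0.16 in the wild type (0.339). The upf1-1 arrays of day 6 spread from 8.66 to 9.42 in POL. UFO, an F-box gene of meristems and flowers, read 3.89 to 4.14 in its group means and was called lower for day 6 over day 0 in upf3-1 (-0.25, 0.0235), where its day 6 mean of 3.89 lay near the background as defined above. For PHV it was YAB3, a gene of the lower leaf side, of 19 listed polarity genes (2 with PHV), and it was not called for day 6 over day 0 in any genotype (-0.11, -0.11 and -0.06). LAS was the only 1 measured of 13 listed boundary genes, and CR4 of 28 listed epidermis and cuticle genes, so the epidermis was not followed by any other marker. The 3 stomatal genes measured of 7 (SPCH, MUTE and FMA) averaged 2.94 to 3.32 per array, and none was called for day 6 over day 0. All 3 lay near the background in every group, so a change in them could have been missed.

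Because CR4 also acts in root tips, a list of root and lateral root genes was read beside it, of which 6 of 16 were measured. From day 0 to day 6, 3 fell and 2 rose in each genotype, so the list did not move as a group. Its median was -1.30 in the wild type against -0.0238 for all genes (-1.09 against -0.0123 in upf1-1 and -1.02 against -0.0227 in upf3-1). That median lies between the genes that fell and the others, and describes none of the 6. The 3 that fell were BBM, an AP2 factor of embryos and root meristems (-3.14 in the wild type), PUCHI, an AP2 factor of lateral root primordia (-3.38), and LBD16, which acts in lateral root initiation (-2.65). EXPA7 and EXPA18, expansin genes of root hair cells, rose by 3.53 and 3.24. The sixth was CLE40, a peptide gene whose product is linked to CR4 in root tips, and it read 2.53 to 2.72 in its group means, within the range of the Trp controls. LBD16 and CLE40 were singled out after their values were seen. The mean signal of the 6 genes ran from 5.96 to 6.38 over the arrays of day 0 and from 5.47 to 5.90 over those of day 6, and its part in the fall of CR4 was not tested.

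The 5 genes most like each member over the 9 group means, among 5435 genes whose group means ranged over at least 0.5, had correlations of 0.919 to 0.948 for PHV, 0.988 to 0.994 for LAS and 0.988 to 0.989 for CR4. They were AT2G14080, AT1G23205, AT2G40640, AT3G61920 and AT4G23720 for PHV. For LAS they were AT1G61990, AT3G46210, AT5G46920, AT1G58410 and AT1G26330, and for CR4 AT5G43530, EMS1, AT5G61400, ATMND1 and AT4G30400. EMS1 is a receptor kinase known from anthers and ATMND1 a gene of meiotic recombination. When the 27 arrays were used in place of the 9 means, 3 of these 15 genes (all for PHV) stayed among the 5 most alike.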

How the data were processed

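The authors deposited log2 signals per probe set from RMA, per the submitters' processing notes, which give no version. Another deposited table repeats these log2 values (0 differed). The number of arrays limits the precision. Of 22810 probe sets, 64 were controls; 13513 had 1 gene symbol, 503 several and 8794 none, and 13436 were matched to a locus of RefSeq's TAIR10.1 table. The probe set with the highest mean stood for a gene, leaving 13286 genes. The annotation names no build, so no coordinates are given.

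The 9 group means were estimated together from the 27 arrays with limma 3.58.1 (lmFit and eBayes, R 4.3.3, statmod 1.5.0), and 26 two-sided contrasts were taken, adjusted by Benjamini-Hochberg over the genes of each. The steps were tested on simulated data. Groups came from the labels, whose day 6 was followed where the design text repeats day 3.

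The members, the gene lists and the rules were chosen with earlier results of these data known. Named genes are the 4 members, all measured genes of 4 shoot lists, up to 4 genes of each other list with the largest change, and the 5 genes most like each member above background over the 9 group means. Alternatives were scales centred on 8 reference genes or 24 poly-A spike-in probe sets, eBayes with trend and robust, fits of only the groups compared, a filter at the 25th percentile, all probe sets, the replicate block, the second table and leaving out each array. Listed xylem and phloem genes (0 of 9 measured) gave no value.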

Additional observations from a re-analysis of the deposited data

Results flagged for a closer look

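EXPA7, a root hair expansin gene read beside CR4, rose less in upf3-1 than in the wild type, by a test of the difference itself. The difference in its change was -1.33 from day 0 to day 3 (SE 0.25, limma adjusted p = 0.00862) and -1.29 from day 0 to day 6 (SE 0.25, 0.0149), with 3 arrays per group; on day 0 EXPA7 was higher in upf3-1 by 1.23 (adjusted p = 1.57e-05). None of the 4 genes was set apart by such a test, and groups of 3 arrays are too small for a test of single outlying arrays.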

How the results depend on the processing

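The fall of CR4 from day 0 to days 3 and 6 was called in all 3 genotypes under every alternative run. Centring on the poly-A spike-ins, whose signals fell over the days, moved the median of all genes by up to 0.715 and left 0 of 5 calls for mutant over wild type on single days, 0 of 5 averaged over days and 0 of 1 between the mutants. It turned LAS for day 6 over day 0 to 0.30 (wild type), 0.15 (upf1-1) and 0.16 (upf3-1), LAS in upf3-1 over wild type averaged over days to 0.0061, PHV in upf3-1 over wild type on day 3 to 0.014, and CLV3 in upf3-1 for day 6 over day 0 to 0.60 (adjusted p = 0.00514); the shift of all genes is part of this scale's construction. The 1 call between mutants became 0 on the reference gene scale, with the replicate block and with only the groups compared, and 2 with trend and robust; the cause was not tested.

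Leaving out 1 array gave 10 to 15 calls over days (13 with all), 3 to 8 for mutant over wild type on single days (5 with all; 3 without wild type day 3 replicate 2, 8 without upf1-1 day 6 replicate 1), 5 to 5 averaged over days, 0 to 2 between mutants and 0 to 0 for interactions. Replicate numbers were not taken to pair the samples: deviations of same-numbered arrays correlated above 0.1 in 23 of 108 pairs (lowest -0.286), and 8 of 27 arrays correlated best with their own number. With the replicate block, PHV for day 6 over day 0 in the wild type was lost (adjusted p = 0.0551), as was PHV between the mutants on day 6 (0.0555), and 4 were gained: LAS in upf1-1 over wild type on day 0 (0.0278), in upf3-1 over wild type on day 3 (0.0308) and in the wild type for day 3 over day 0 (0.0496), and CLV3 in the wild type for day 6 over day 0 (0.0452). Over all genes, the number called moved by over 1.5 times in 13 of 26 comparisons on the spike-in scale (4469 to 12052 for day 6 over day 0 in the wild type), in 25 with all probe sets, where more features were tested (4469 to 8412), in 10 with only the groups compared, where fewer arrays were (1053 to 409 between the mutants on day 3), and in 1 each with trend and robust (47 to 26) and the block (47 to 30). Near-background groups numbered 0 at the 10th percentile and 17 at the 40th, against 9 at the 25th. Of the 15 genes most like the members, 3 recurred over 27 arrays. For the 12 listed shoot, root and stomatal genes that are not members, 44 of 108 values over the 9 comparisons of days were called (40.7%, against 22.2% over all genes), 44 on the reference scale (21.4% over all genes) and 62 on the spike-in scale (45.9%). In the deposited values most of these calls were of the 6 root genes, such as 2 higher and 3 lower for day 6 over day 0 in the wild type. Shoot genes were called only in the mutants (POL and UFO), and the stomatal genes gave 0 calls. The pooled share therefore does not describe the shoot genes. The filter at the 25th percentile removed CLV3. Signal over background limits what can be said of CLV3.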
